A study of Mus musculus with 8 samples.

Results

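The genes described here are those of the mouse major histocompatibility complex (MHC) and of the machinery that loads peptides onto class I molecules, in MC3T3 cells given medium from a lung carcinoma line. MC3T3 cells are mouse osteoblast precursors kept as a line, which can mineralize a matrix in culture. Members were taken by symbol: every row of the count table named H2-K, -D, -L, -Q, -T, -M, -A, -B, -E or -O, without H2-Ke6, plus B2m, Tap1, Tap2, Tapbp, Tapbpl, Erap1, Nlrc5, Cd74 and Ciita. The rule found 49 of the 43346 rows. They comprise 2 classical class I genes, 28 nonclassical class I rows, 12 class II route genes and 7 peptide loading genes. The last group counts B2m and Nlrc5 together with Tap1, Tap2, Tapbp, Tapbpl and Erap1.

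The LLC-CM group holds 4 libraries from MC3T3 cells grown in 25% LLC1 medium, where LLC1 is the Lewis lung carcinoma line of mouse, held without serum for 48 hours before its medium was filtered. The NCM group holds 4 libraries, a name the labels leave unexplained, and is read here as the vehicle group because no other group is left. Cells of both groups grew for 7 days with 10 mM beta-glycerophosphate and 100 ug per mL ascorbic acid, which support mineralization. All are 1 cell line, and the labels do not state whether each replicate was its own culture. The p-values therefore cover only how far these libraries scatter, and that scatter may be technical.

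Class I molecules present fragments of proteins made inside a cell. A heavy chain encoded in the MHC pairs with beta-2-microglobulin in the endoplasmic reticulum, where the TAP transporter delivers peptides, tapasin holds the empty molecule beside it, and Erap1 trims the peptides to length. Classical heavy chains are read by CD8 T cells and missing ones by natural killer cells, and most cells of the body, osteoblasts among them, carry them at some level. Class II molecules present ingested protein and are made mainly by dendritic cells, macrophages and B cells. Interferons raise both routes: Nlrc5 is the coactivator of class I genes and Ciita that of class II genes, and both act through a promoter module bound by RFX, CREB and NF-Y factors.

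The promoters of H2-K1, H2-D1, B2m and Tap1 are shown because these genes build the class I route and were all higher in LLC-CM. Each line gives the 250 bases before the RefSeq transcript start in GRCm38.p6, which is the mm10 build, 5′ to 3′ on the gene's own strand. Capitals mark the IRF core AANNGAAA and the kappa B core GGGATTCCC, searched on both strands. The regions are chr17:34000348-34000597 on the minus strand for H2-K1 and, on the plus strand, chr17:35262844-35263093 for H2-D1, chr2:122147437-122147686 for B2m and chr17:34187306-34187555 for Tap1.
H2-K1: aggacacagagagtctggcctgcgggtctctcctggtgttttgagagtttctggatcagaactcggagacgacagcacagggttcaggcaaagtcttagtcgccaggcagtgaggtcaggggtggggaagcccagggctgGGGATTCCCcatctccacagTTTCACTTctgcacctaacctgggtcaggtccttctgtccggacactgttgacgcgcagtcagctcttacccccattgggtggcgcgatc
H2-D1: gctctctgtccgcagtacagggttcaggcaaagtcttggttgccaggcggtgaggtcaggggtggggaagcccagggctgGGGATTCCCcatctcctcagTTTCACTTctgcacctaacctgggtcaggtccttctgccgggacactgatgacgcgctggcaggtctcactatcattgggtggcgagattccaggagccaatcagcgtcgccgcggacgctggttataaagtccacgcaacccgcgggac
B2m: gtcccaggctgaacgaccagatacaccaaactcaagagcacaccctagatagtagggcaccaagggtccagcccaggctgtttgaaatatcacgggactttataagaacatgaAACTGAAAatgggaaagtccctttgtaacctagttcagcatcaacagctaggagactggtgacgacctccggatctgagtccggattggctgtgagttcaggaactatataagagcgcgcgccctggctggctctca
Tap1: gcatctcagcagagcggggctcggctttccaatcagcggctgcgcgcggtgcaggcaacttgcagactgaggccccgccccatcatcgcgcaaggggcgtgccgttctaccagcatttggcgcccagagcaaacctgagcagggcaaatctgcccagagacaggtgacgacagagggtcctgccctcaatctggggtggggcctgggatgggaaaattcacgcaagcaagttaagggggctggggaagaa
The H2-K1 and H2-D1 windows share an identical run of 47 bases that ends 95 bases before the H2-K1 start and 155 bases before the H2-D1 start and holds the kappa B core. The IRF core stands at 90 to 83 bases before the start in H2-K1 and at 150 to 143 in H2-D1. The letters ATTGG stand at 16 to 12 in H2-K1 and at 76 to 72 in H2-D1. These distances depend on where RefSeq places each start, and the H2-D1 window lies within the deposited span of that gene. The Tap1 window lies within the deposited span of the proteasome gene Psmb9, on the opposite strand. B2m has the IRF core at 137 to 130 bases before its start and no GGGATTCCC in this window, and Tap1 has neither. Other spellings of a kappa B site were not searched, so these windows may hold one. A promoter was given for 15 of the 22 members that were tested, and 8 of these 15 held the IRF core. Of the 8 tested class I heavy chain rows among them, 7 held the IRF core (H2-K1, H2-D1, H2-Q2, H2-Q4, H2-T22, H2-T23 and H2-M3), as did 1 of the 7 other members, B2m, against 21.6% of 27025 promoters of the same length. Those 7 rows also held ATTGG, the Y box or CCAAT letters, which 34.5% of all promoters held. The kappa B core was in 2 of the 8, H2-K1 and H2-D1, and in 0.311% of all promoters. Both matches lie in the run that these 2 windows share, so they are not independent, and enrichment was not tested. TGACG, the core letters of a CRE-like X2 box, was in 5 of the 8 and in 17.9% of all promoters. These matches are letters found in a window and show no binding.

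The count table gave 27264212 to 35573953 assigned reads per library. Of 14991 genes tested, 36.9% changed at an adjusted p under 0.05, 18.8% higher and 18.1% lower in LLC-CM, and the median log2 fold change of all genes tested was 0.01. Levels are counts scaled to library size as CPM on TMM-scaled totals, the test is edgeR's quasi-likelihood test with Benjamini-Hochberg adjustment over all genes tested, and log2 fold changes are LLC-CM minus NCM with their SE. All 6 osteoblast markers on the list were read in both groups and were lower in LLC-CM, among them Runx2 at 237 CPM in LLC-CM and 470 CPM in NCM, Alpl at 13.7 CPM in LLC-CM and 62.6 CPM in NCM, and Bglap at 1.55 CPM in LLC-CM and 128 CPM in NCM. Fewer molecules in each cell and fewer cells of a kind cannot be told apart in bulk RNA.

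Every tested member had a positive log2 fold change, from 0.38 for H2-K2 to 2.87 for H2-Q2. Of the 49 rows 22 had enough reads to be tested, 12 had reads but too few, and 15 had no read in any library. Of the 22 tested, 19 rose, none fell and 3 (H2-K2, H2-M5 and H2-DMa) did not pass the threshold, against 18.8% of all tested genes called higher. The median log2 fold change of the 22 was 0.95, and 8 members were called and at least 2-fold higher, against 4.99% of all genes tested. The values of all 4 LLC-CM libraries lay above all 4 NCM libraries for 18 of the 22, and for 18.1% of all genes tested. Some of these passed the low-count cutoff of 0.33 CPM through LLC-CM: Cd74 reached it in no NCM library, and H2-Q2 and H2-M5 each in 2. Of the other 19, at or above the cutoff in all 4 NCM libraries, 17 rose and 6 rose at least 2-fold.

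**Figure D1:**
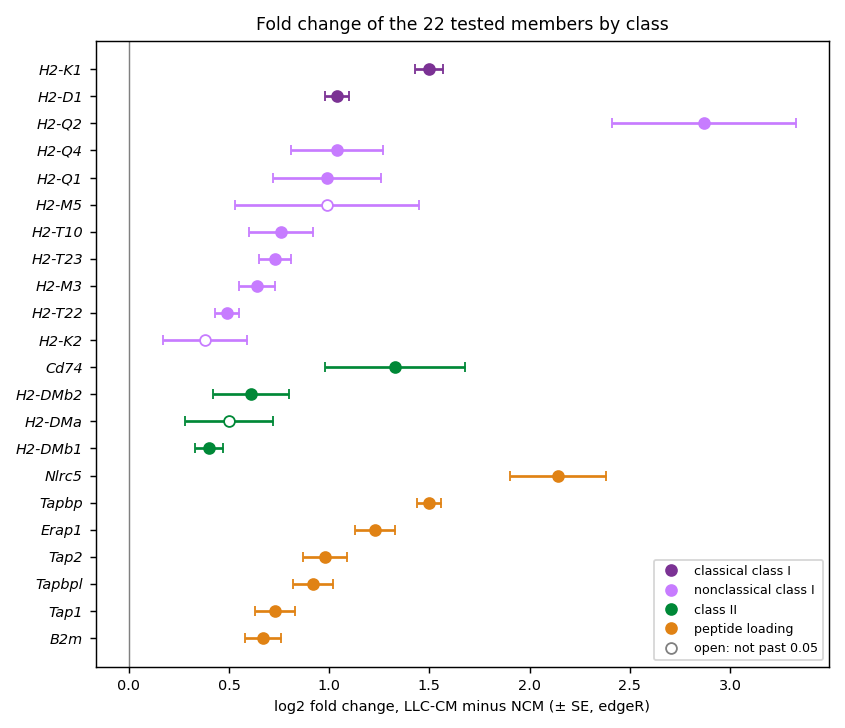
Log2 fold change of LLC-CM minus NCM for the 22 tested members, with the SE from edgeR as bars, ordered within each class. Filled points passed an adjusted p of 0.05, and all points lie to the right of 0, with H2-Q2 at 2.87 and Nlrc5 at 2.14 the highest.

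The classical class I heavy chains, H2-K1 and H2-D1, both rose, and H2-K1 rose by more. H2-K1 (ENSMUSG00000061232, chromosome 17, 33996017 to 34000333 in mm10) had 147, 134, 130 and 135 CPM in LLC-CM libraries 1 to 4, against 44.7, 46.7, 54.7 and 47.2 CPM in NCM libraries 1 to 4. The groups were far apart, and the LLC-CM mean was 136 ± 7.31 CPM against 48.3 ± 4.39 CPM in NCM (SD, n = 4). Its log2 fold change was 1.50 ± 0.07 (edgeR, adjusted p = 2.7e-10), a 2.82-fold rise. H2-D1 (ENSMUSG00000073411, chromosome 17, 35262730 to 35267499) had 291, 276, 295 and 294 CPM in LLC-CM, against 132, 144, 151 and 135 CPM in NCM. The lowest LLC-CM library stood well above the highest NCM library, and the fold was 2.06 (log2 1.04 ± 0.06, edgeR adjusted p = 2.9e-09). Per kilobase of gene length H2-D1 stayed the more abundant chain, at 112 CPM per kb in LLC-CM and 54.6 in NCM, with H2-K1 at 52.3 in LLC-CM and 18.5 in NCM. Within each library the per-kilobase ratio of H2-D1 to H2-K1 ran from 2.01 to 2.3 in LLC-CM and from 2.8 to 3.13 in NCM. The ratio differed by -0.46 on the log2 scale (exact two-sided permutation test, p = 0.0286, the smallest that 4 against 4 allows, adjusted p = 0.0343 over 6 ratios). Of all class I heavy chain reads, H2-K1 took 22.8% ± 0.77 in LLC-CM and 16.0% ± 0.691 in NCM, and H2-D1 took 48.3% ± 1.55 in LLC-CM and 46.7% ± 0.465 in NCM (SD, n = 4).

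**Figure D2:**
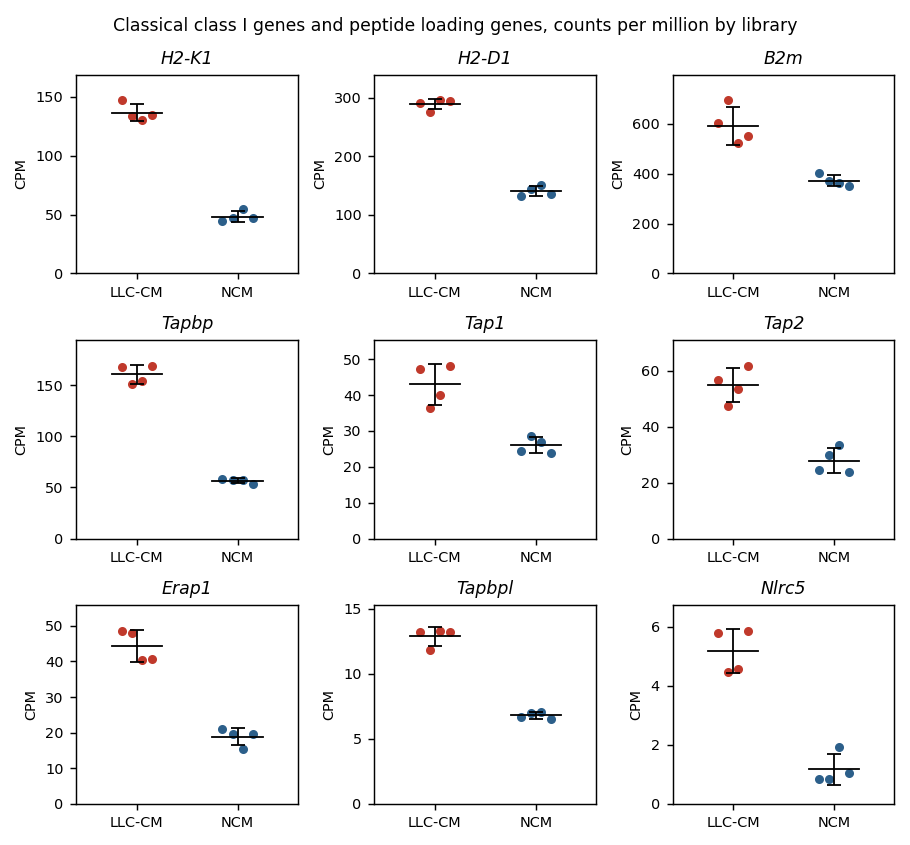
Level in CPM in each library for the classical class I genes and the peptide loading genes, with LLC-CM left and NCM right in each panel. Points are libraries, lines are means and bars are 1 SD (n = 4), and in all 9 panels the LLC-CM points lie above the NCM points.

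B2m, which encodes the light chain shared by all class I molecules, also rose, with a smaller log2 fold change than H2-K1 or H2-D1. B2m (ENSMUSG00000060802, chromosome 2, 122147686 to 122153083) had 603, 694, 523 and 550 CPM in LLC-CM, against 403, 371, 361 and 352 CPM in NCM. The groups did not overlap, although the LLC-CM libraries were more scattered, and the log2 fold change was 0.67 ± 0.09 (edgeR, adjusted p = 1.6e-05). At 689 CPM per kb in LLC-CM and 432 CPM per kb in NCM it stood at the 99.6th and 99.4th percentile of tested genes in those groups. The per-kilobase ratio of B2m to H2-K1 was 12.2 to 15.7 in LLC-CM and 20 to 27.3 in NCM, a log2 difference of -0.83 (exact permutation test, p = 0.0286, adjusted p = 0.0343). Summed over all 30 class I heavy chain rows the level was 232 CPM per kb in LLC-CM and 117 CPM per kb in NCM, below B2m in both groups.

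All 7 genes grouped as peptide loading rose, led on the fold scale by Nlrc5, which acts on transcription and does not itself load peptides. Among the rest Tapbp led, with a log2 fold change of 1.50. Nlrc5 (ENSMUSG00000074151, chromosome 8), the class I coactivator, had 5.80, 4.48, 4.56 and 5.86 CPM in LLC-CM, against 0.853, 0.850, 1.94 and 1.04 CPM in NCM. It was scarce in both groups, and NCM library 3 was the highest NCM library yet below every LLC-CM library. The log2 fold change was 2.14 ± 0.24 (edgeR, adjusted p = 3.5e-06).

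Tapbp encodes tapasin, which bridges the empty class I molecule and TAP. Tapbp (chromosome 17, 33915899 to 33929288) had 168, 151, 154 and 169 CPM in LLC-CM, against 58.3, 57.5, 57.6 and 53.0 CPM in NCM. With a log2 fold change of 1.50 ± 0.06 (edgeR, adjusted p = 5e-11) it had the smallest adjusted p of the 22 members, and its fold of 2.84 was close to the 2.82 of H2-K1. Tapbpl, which encodes the tapasin-related peptide editor TAPBPR and lies on chromosome 6, was at a far lower level. It had 13.2, 11.8, 13.3 and 13.2 CPM in LLC-CM, against 6.65, 6.98, 7.06 and 6.53 CPM in NCM (log2 0.92 ± 0.10, edgeR adjusted p = 1.8e-06).

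The TAP transporter is a pair of the Tap1 and Tap2 proteins, and both genes rose. Tap1 (chromosome 17, 34187553 to 34197225) had 47.3, 36.5, 40.1 and 48.2 CPM in LLC-CM, against 24.4, 28.7, 27 and 23.9 CPM in NCM. Tap2 (chromosome 17, 34203527 to 34216321) had 56.6, 47.4, 53.7 and 61.9 CPM in LLC-CM, against 24.6, 29.8, 33.4 and 23.7 CPM in NCM. The groups were separate for both genes, and the log2 fold changes were 0.73 ± 0.10 for Tap1 and 0.98 ± 0.11 for Tap2 (edgeR, adjusted p = 2e-05 and 5.6e-06). The per-kilobase ratio of Tap1 to Tap2 was 0.516 to 0.577 in LLC-CM and 0.558 to 0.697 in NCM. The ranges overlapped through NCM library 3, and the log2 difference of -0.26 missed the threshold (exact permutation test, p = 0.0571, adjusted p = 0.0571). Without NCM library 3 the difference was -0.34 (exact permutation test, p = 0.0286).

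Erap1, the aminopeptidase that trims peptides in the endoplasmic reticulum, lies on chromosome 13. It had 48.6, 48.1, 40.4 and 40.6 CPM in LLC-CM, against 20.9, 19.7, 15.3 and 19.5 CPM in NCM. Every LLC-CM library was far above the NCM libraries, with a log2 fold change of 1.23 ± 0.10 (edgeR, adjusted p = 1.4e-07).

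**Figure D3:**
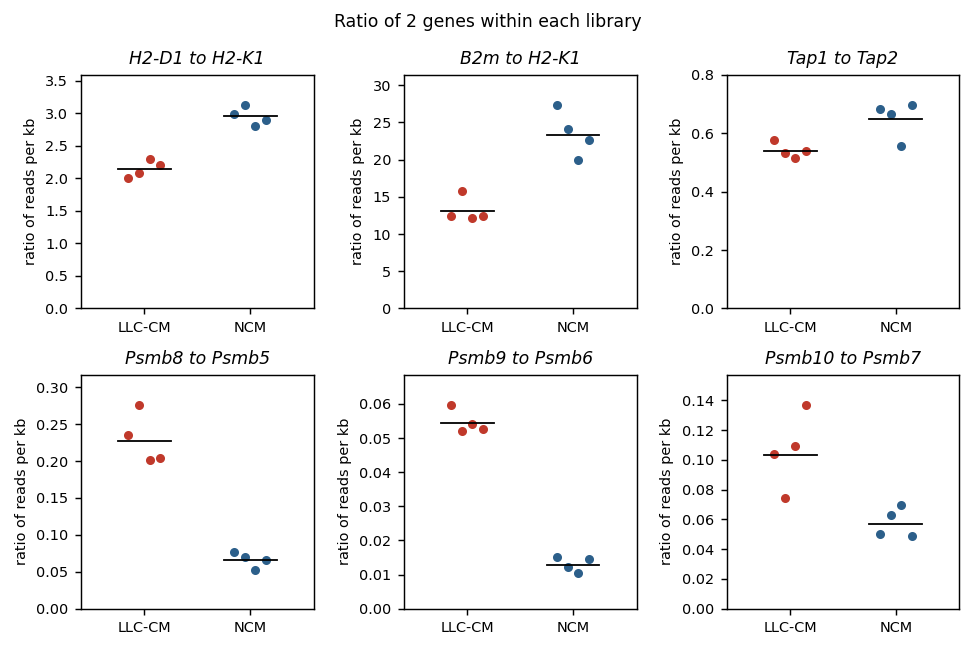
Ratio of the reads per kilobase of 2 genes within each library, LLC-CM left and NCM right, for the class I pairs (top row) and for the immunoproteasome subunits over the constitutive subunits they replace (bottom row). Points are libraries and lines are geometric means, and the groups are separate in every panel but Tap1 to Tap2.

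Among the nonclassical class I genes 7 of the 9 tested rose, and the median log2 fold change of the 9 was 0.76, against 1.27 for the 2 classical genes. These genes have narrower tissue ranges or specialised ligands. Of the 28 rows 10 had no read and 9 had too few reads to test. The rows summed to 173 ± 7.83 CPM in LLC-CM and 113 ± 5.87 CPM in NCM, a ratio of 1.54, while H2-K1 and H2-D1 together gave 426 ± 12.0 CPM in LLC-CM and 189 ± 12.7 CPM in NCM, a ratio of 2.25 (SD, n = 4).

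H2-T22, a ligand of gamma delta T cells, was the most abundant nonclassical row. It had 86.7, 90.5, 81.3 and 85.0 CPM in LLC-CM, against 61.0, 60.5, 64.3 and 58.1 CPM in NCM. The groups were well separated although the fold was only 1.41 (log2 0.49 ± 0.06, edgeR adjusted p = 6.7e-06). H2-T10, its close relative and annotated as a polymorphic pseudogene, had 11.2, 13.8, 7.87 and 11.3 CPM in LLC-CM, against 5.46, 6.06, 6.60 and 7.82 CPM in NCM. The lowest LLC-CM library and the highest NCM library nearly touched (log2 0.76 ± 0.16, edgeR adjusted p = 0.0016). Of the 50-base words in H2-T22 transcripts 31.2% also stood in H2-T10, so the split between them is uncertain, and their sum was 96.9 ± 6.2 CPM in LLC-CM and 67.5 ± 2.32 CPM in NCM (SD, n = 4).

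H2-T23 encodes the Qa-1 heavy chain, which shows leader peptides of other class I chains to natural killer cells. It had 34.6, 31.3, 32.4 and 35.1 CPM in LLC-CM, against 19.1, 21.0, 22.3 and 17.9 CPM in NCM. H2-M3, whose product presents formylated bacterial and mitochondrial peptides, had 32.6, 31.9, 29.1 and 29.9 CPM in LLC-CM, against 19.8, 21.7, 20.9 and 16.8 CPM in NCM. Groups were separate for both, with log2 fold changes of 0.73 ± 0.08 for H2-T23 and 0.64 ± 0.09 for H2-M3 (edgeR, adjusted p = 4.6e-06 and 2.8e-05). Only 0.576% of the 50-base words of H2-M3 occurred in another gene, and 14.5% of those of H2-T23.

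The H2-Q rows were scarce, and the tested ones rose. H2-Q2 had 3.67, 1.48, 2.97 and 5.20 CPM in LLC-CM, against 0.614, 0.319, 0.106 and 0.757 CPM in NCM. Its LLC-CM values spread over a wide range yet stayed above NCM, and its log2 fold change of 2.87 ± 0.46 (edgeR, adjusted p = 0.00029) was the largest of the members tested. H2-Q4 averaged 3.05 ± 0.164 CPM in LLC-CM and 1.47 ± 0.524 CPM in NCM (SD, n = 4, log2 1.04 ± 0.23, edgeR adjusted p = 0.0019). H2-Q1 averaged 2.27 ± 0.258 CPM in LLC-CM and 1.14 ± 0.563 CPM in NCM (SD, n = 4, edgeR adjusted p = 0.0093), and NCM library 3, at 1.98 CPM, lay within the LLC-CM range. The 8 H2-Q rows together gave 9.36 ± 1.49 CPM in LLC-CM and 3.17 ± 0.48 CPM in NCM (SD, n = 4). Between 15.0% and 36.4% of the 50-base words of H2-Q1, H2-Q2 and H2-Q4 occurred in another gene.

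H2-M5 and the pseudogene H2-K2 did not pass the threshold. H2-M5 averaged 0.544 ± 0.226 CPM in LLC-CM and 0.272 ± 0.154 CPM in NCM (SD, n = 4, edgeR adjusted p = 0.11), and H2-K2 averaged 1.95 ± 0.443 CPM in LLC-CM and 1.49 ± 0.161 CPM in NCM (SD, n = 4, edgeR adjusted p = 0.17). Their groups overlapped.

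Several nonclassical rows had reads almost only in LLC-CM. H2-Q6 had 23 counts over the 4 LLC-CM libraries and 0 over NCM, a ratio of 7.08 when NCM is set to a floor of 3 counts over the group. H2-T24 had 0, 1, 6 and 3 counts in LLC-CM libraries 1 to 4 and 0 in NCM, so the groups overlapped, with a ratio of 3.08 at the same floor. Ratios taken at the floor leave out the counting error of LLC-CM. H2-Q7, a Qa-2 heavy chain gene, had 28 counts in LLC-CM and 3 in NCM, which gives 8.62 as the ratio, with 2.66 to 44.3 as its 95% counting interval (exact). H2-Q5 had 31 counts in LLC-CM and 8 in NCM (ratio 3.58, 1.61 to 9.01), H2-Q10 had 8 in LLC-CM and 1 in NCM (7.39, 0.991 to 328), and H2-Bl had 9 in LLC-CM and 4 in NCM (2.08, 0.58 to 9.24). H2-M6-ps, a pseudogene row, went the other way, with 2 counts in LLC-CM and 20 in NCM (ratio 0.0924, 0.0105 to 0.38). These intervals cover counting error only. H2-T3, which encodes the TL antigen of gut epithelium, had 0 counts in LLC-CM and 2 in NCM. In the H2-M1, H2-M9, H2-M10 and H2-M11 group, known from sensory neurons of the vomeronasal organ, only H2-M10.4 had reads, 0 in LLC-CM and 2 in NCM. H2-M2 and H2-Q3 had none.

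**Figure D4:**
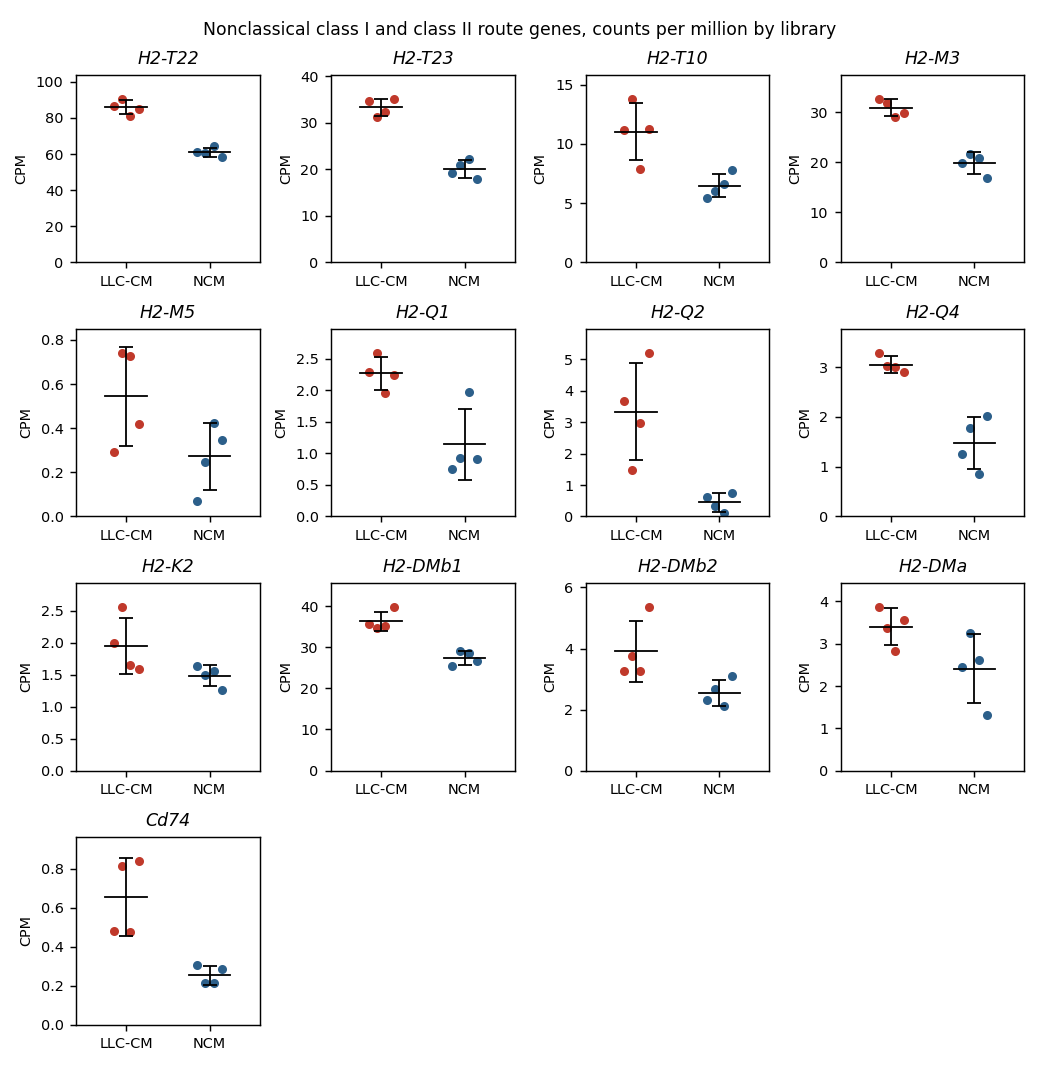
Level in CPM in each library for the tested nonclassical class I rows (including the H2-K2 pseudogene) and the tested class II route genes, LLC-CM left and NCM right. Points are libraries, lines are means and bars are 1 SD (n = 4), with the scale starting at 0 in each panel and the groups overlapping for H2-M5, H2-Q1, H2-K2 and H2-DMa.

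The antigen-presenting class II chains were nearly absent in both groups. The genes of their peptide editor had reads in every library, with H2-DMb1 at a far higher level than H2-DMa and H2-DMb2. H2-Aa had 4, 2, 1 and 4 counts in the LLC-CM libraries and 0 in all NCM libraries, a ratio of 3.39 with 3 counts over the NCM group as the floor. H2-Ab1 had 2 counts in LLC-CM and 0 in NCM, and H2-Eb1, H2-Eb2, H2-Ea-ps, H2-Oa and H2-Ob had no read. Ciita, the class II coactivator, had 3, 0, 2 and 0 counts in LLC-CM and 0 in NCM, so the groups overlapped.

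Cd74 encodes the invariant chain that guards new class II molecules. It had 0.483, 0.814, 0.476 and 0.837 CPM in LLC-CM, against 0.307, 0.213, 0.212 and 0.284 CPM in NCM. The groups were separate at very low levels (log2 1.33 ± 0.35, edgeR adjusted p = 0.0073), and no NCM library reached the low-count cutoff.

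H2-DMb1, a beta chain of the DM editor that swaps peptides on class II molecules, was the best expressed class II route gene. It had 35.6, 34.6, 35.2 and 39.7 CPM in LLC-CM, against 25.4, 29.0, 28.7 and 26.7 CPM in NCM. The LLC-CM libraries all lay above NCM and the fold was 1.32 (log2 0.40 ± 0.07, edgeR adjusted p = 0.00046). H2-DMb2, the second beta chain gene, had 3.25, 3.77, 3.25 and 5.35 CPM in LLC-CM, against 2.32, 2.66, 2.12 and 3.09 CPM in NCM. Its call (log2 0.61 ± 0.19, edgeR adjusted p = 0.022) was lost without LLC-CM library 4 (0.094), NCM library 1 (0.063) or NCM library 3 (0.064). Because 21.2% of the 50-base words of H2-DMb2 stood in H2-DMb1, their sum is also given, 40.2 ± 3.26 CPM in LLC-CM and 30.0 ± 1.72 CPM in NCM (SD, n = 4). H2-DMa, the alpha chain gene, had 3.86, 3.37, 2.83 and 3.56 CPM in LLC-CM, against 2.46, 3.26, 2.61 and 1.32 CPM in NCM, and did not pass the threshold (log2 0.50 ± 0.22, edgeR adjusted p = 0.097). NCM library 2 overlapped the LLC-CM range, and without it H2-DMa passed (0.042). Reads in the 10.4% of H2-DMa exonic length that Brd2 covers on the opposite strand cannot be told apart.

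Markers of professional antigen-presenting cells ranged from no read to the level of Lyz2. Of the macrophage markers Ptprc had no read in LLC-CM and a mean of 0.0354 CPM in NCM, and Adgre1 had none in LLC-CM and a mean of 0.0266 CPM in NCM. The 7 macrophage markers summed to 23 to 36.5 CPM in LLC-CM and 15.1 to 20.2 CPM in NCM, mostly Lyz2 (means of 20.3 CPM in LLC-CM and 11.5 CPM in NCM). Of these markers 3 of the 5 tested rose (Lyz2, Fcer1g and Cd14), against 18.8% of all genes tested. Cd14 averaged 4.36 CPM in LLC-CM and 3.04 CPM in NCM, and Fcer1g 1.25 CPM in LLC-CM and 0.427 CPM in NCM. Fcer1g was under the low-count cutoff in NCM libraries 3 and 4 (0.318 and 0.315 CPM). Cd68 (1.37 CPM in LLC-CM and 1.26 CPM in NCM) and Csf1r (0.862 CPM in LLC-CM and 1.21 CPM in NCM) did not pass. The part of the macrophage markers in the class II and Cd74 values was not tested. Among dendritic cell markers Flt3 and Xcr1 had no read and Itgax had 2 counts in 1 LLC-CM library. Ccr7 had 4, 0, 3 and 2 counts in LLC-CM libraries 1 to 4 and 0 in NCM. Zbtb46, the 1 tested, fell, at 6.22 CPM in LLC-CM and 8.93 CPM in NCM. The 5 dendritic cell markers summed to 5.86 to 6.94 CPM in LLC-CM and 7.97 to 9.78 CPM in NCM. The 5 B cell markers summed to at most 0.129 CPM in LLC-CM and 0.158 CPM in NCM, and the 6 T and natural killer cell markers to at most 0.0598 CPM in LLC-CM and 0.0706 CPM in NCM. Of the 5 epithelial markers Epcam, Krt8 and Krt18 had no read and Muc1 rose. Cdh1 had 9 counts in LLC-CM and 13 in NCM, too few to test. Muc1 had a mean of 1.46 CPM with an SD of 0.455 in LLC-CM, and a mean of 0.383 CPM with an SD of 0.193 in NCM (n = 4). It was under the low-count cutoff in NCM libraries 3 and 4 (0.141 and 0.315 CPM).

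The immunoproteasome, which makes many of the peptides that TAP carries, rose with the class I genes. Of 9 listed proteasome genes 7 were higher and none lower in LLC-CM, against 18.8% higher and 18.1% lower among all genes tested. Psmb8 had 37.6, 38.6, 32.4 and 35.2 CPM in LLC-CM, against 10.2, 9.88, 8.37 and 8.45 CPM in NCM, and Psmb9, whose start lies beside that of Tap1, averaged 11.5 ± 0.716 CPM in LLC-CM and 2.42 ± 0.241 CPM in NCM (SD, n = 4). The groups were wide apart, with log2 fold changes of 1.96 ± 0.09 for Psmb8 and 2.24 ± 0.12 for Psmb9, and Psmb10 rose by 1.10 ± 0.13. Of the constitutive subunits that these replace, Psmb7 rose by 0.22 ± 0.08, and Psmb5 (0.17 ± 0.08, edgeR adjusted p = 0.11) and Psmb6 (0.17 ± 0.07, edgeR adjusted p = 0.064) did not pass. The per-kilobase ratio of Psmb8 to Psmb5 averaged 0.227 in LLC-CM and 0.0657 in NCM, that of Psmb9 to Psmb6 0.0545 in LLC-CM and 0.0129 in NCM, and that of Psmb10 to Psmb7 0.104 in LLC-CM and 0.0571 in NCM. Each of these 3 ratios was higher in every LLC-CM library than in every NCM library (exact permutation test, p = 0.0286 each, adjusted p = 0.0343). The Psmb10 to Psmb7 call was lost without any 1 of NCM libraries 1, 2, 3 or 4 (exact permutation test, p = 0.0571 each). The activator genes Psme1 and Psme2 rose by 0.87 ± 0.10 and 0.89 ± 0.09, and the assembly factor Pomp rose by 0.33 ± 0.07.

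Upstream factors of the MHC promoters did not share one direction. Of 7 genes for the factors that bind the shared module, none rose and 3 fell, against 18.8% higher and 18.1% lower among all genes tested. Those that fell had log2 fold changes of -0.37 ± 0.11 for Rfxap, -0.24 ± 0.06 for Creb1 and -0.24 ± 0.06 for Nfya. Rfx5 (0.19 ± 0.07, edgeR adjusted p = 0.052), Rfxank (0.19 ± 0.10), Nfyb (-0.06 ± 0.09) and Nfyc (-0.03 ± 0.07) did not pass. Interferon receptor and signalling genes moved in both directions. The transcription factors Stat2, Irf1, Irf2 and Irf9 rose, by 0.57 ± 0.09, 0.76 ± 0.06, 0.23 ± 0.08 and 0.81 ± 0.14, as did the receptor chain Ifnar2 by 0.20 ± 0.06. Irf1, a direct activator of class I promoters, had 50.8, 48.0, 45.1 and 46.1 CPM in LLC-CM, against 27.6, 28.0, 28.8 and 27.5 CPM in NCM. The groups were separate, with the NCM libraries close to each other. In the opposite direction Jak2, a kinase of the interferon gamma receptor, had 90.4, 99.1, 99.1 and 83.2 CPM in LLC-CM, against 266, 246, 268 and 267 CPM in NCM (log2 -1.49 ± 0.07, edgeR adjusted p = 1.6e-10). The receptor chain Ifngr1 (-0.57 ± 0.06) and the kinase Tyk2 (-0.32 ± 0.10) also fell. Ifngr2 (-0.15 ± 0.07), Ifnar1 (-0.01 ± 0.06), Jak1 (0.09 ± 0.06) and the feedback inhibitor Socs1 (-0.03 ± 0.22) did not pass.

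The counts in the lists that follow stand beside 18.8% higher and 18.1% lower among all genes tested. Of 7 endoplasmic reticulum folding genes 3 rose and 1 fell. Calr, the calreticulin of the loading complex, rose by 0.51 ± 0.07, Pdia3, the disulfide isomerase that pairs with tapasin, by 0.31 ± 0.08, and Hspa5 by 0.28 ± 0.07, while Sec61a1, of the translocation channel, fell (-0.25 ± 0.08). Of 6 endosomal protease and reductase genes 5 were tested and all 5 rose: Ctsb by 1.36 ± 0.07, Ctsl by 1.26 ± 0.09, Ctsd by 0.65 ± 0.08, Lgmn by 0.78 ± 0.07 and the thiol reductase gene Ifi30 by 0.40 ± 0.07. Ctss, the cathepsin of professional antigen-presenting cells, averaged 0.133 CPM in LLC-CM and 0.0417 CPM in NCM. Of 10 class I-like genes outside the H2 names 8 were tested and 5 rose. Hfe, an iron regulator that binds beta-2-microglobulin, rose by 1.50 ± 0.08, the neonatal Fc receptor gene Fcgrt by 0.39 ± 0.09, and the natural killer cell ligand genes Raet1e and H60b by 0.51 ± 0.08 and 1.39 ± 0.39. H60b passed the low-count cutoff through LLC-CM, as no NCM library was above 0.315 CPM, and its deposited span lies within that of Raet1e. Of 9 costimulator and checkpoint genes 3 were tested. Cd80 averaged 20.9 ± 3.33 CPM in LLC-CM and 11.6 ± 2.17 CPM in NCM (SD, n = 4) and rose by 0.84 ± 0.14, Cd276 had a log2 fold change of -0.25 ± 0.06 and was lower, and Cd274 (0.65 ± 0.28, edgeR adjusted p = 0.083) did not pass. Cd86 and Pdcd1lg2 had no read. Cd40 had too few reads to test, with none in LLC-CM and 7, 3, 2 and 3 counts in NCM libraries 1 to 4. Icosl, Icam1 and Tnfsf9 also had too few reads, and their groups overlapped.

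Position in the MHC was not shared as a direction by the other genes there. Between the first and last H2 row on chromosome 17 (33974831 to 37483552), 13 of 16 tested members were higher and none lower, with a median log2 fold change of 0.75. Of the 95 other tested genes in that interval, 14.7% were higher and 12.6% lower, with a median of 0.07, against 18.8% higher and 18.1% lower among all genes tested. Psmb8 and Psmb9 and the complement genes C4b, C4a and Cfb were among the 14 higher, and Col11a2, a collagen gene, was the lowest.

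**Figure D5:**
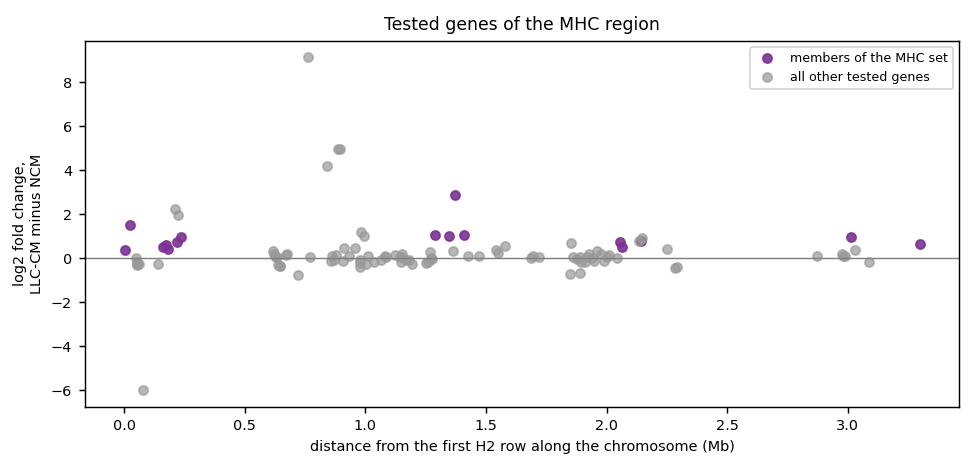
Log2 fold change (LLC-CM minus NCM) of all tested genes between the first and the last H2 row on chromosome 17, against distance along the chromosome in Mb from the first row. Members (purple) lie above 0 in every cluster, while the other genes (grey) have a median of 0.07, with C4b, C4a, Cfb and Gm20547 above 4, Psmb9 at 2.24, Psmb8 at 1.96, Hspa1b and Hspa1a above 1 and Col11a2 at -5.99.

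In GENCODE M21, exons of several members overlap another gene on the opposite strand, and the libraries do not mark strand, so such reads cannot be told apart. The shares below are of GENCODE M21 exonic length, which equalled the deposited gene length for 32 of the 49 members. For the rest, the exons that were counted may differ from those that overlap. The opposite partner covered 29.4% of the exonic length of H2-T22 (A930015D03Rik), 27.1% of H2-T10 (BC023719), 24.9% of Tapbp (Gm19412), 19.1% of H2-Q4 (Gm11131), 14.1% of Tap2 (Gm15821), 11.5% of Erap1 (Cast) and 10.4% of H2-DMa (Brd2). Cast was at 146 ± 9.48 CPM in LLC-CM and 134 ± 8.19 CPM in NCM, and Brd2 at 222 ± 9.94 CPM in LLC-CM and 266 ± 13.7 CPM in NCM (SD, n = 4). A930015D03Rik, BC023719, Gm19412, Gm11131 and Gm15821 were each at 2.06 CPM or less in both groups. Tap1 shared 3.87% with Psmb9 and Nlrc5 0.918% with 9330175E14Rik, and both partners were higher in LLC-CM. B2m, H2-K1 and H2-D1 had no such overlap, and 0.0%, 9.63% and 12.8% of their 50-base words occurred in another gene.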

How the data were processed

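RNA of 4 LLC-CM and 4 NCM samples was sequenced from poly(A)-selected libraries, per the labels' protocols, with a kit that does not mark strand. The deposited table holds raw read counts per gene as whole numbers, and CASAVA, STAR, featureCounts and the mm10 build were used by the authors, per the submitters' processing notes, and no source used here gives their versions. Gene lengths are the deposited length column, whose derivation is not given in the sources used here. How reads matching several genes were counted is also not given.

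Columns were matched to samples by title. Library totals were 27264212 to 35573953 counts. For rows at 0 in a group the floor is 3 counts over that group. Library pairs within groups differed by more than sampling noise (chi-square per degree of freedom at least 7.07), and none was treated as a repeat. All 14991 genes passing filterByExpr were fitted with edgeR 4.0.16 (R 4.3.3, limma 3.58.1): TMM, robust quasi-likelihood F test, no covariate, Benjamini-Hochberg at 0.05. SE is the absolute log2 fold change over the square root of F. The fit was checked on simulated counts. Members, lists and promoter motifs were chosen with earlier results of these data known. Named genes are all tested members, with untested rows given in groups, all catalytic proteasome pairs, promoter factors and interferon signalling genes, and up to 4 genes of smallest adjusted p in each other pathway list. Cell type markers were a separate list, and those named from it were chosen after their values were seen. A gene of the interferon list is not reported here, so no count over that list is given. Psme1, Psme2, Pomp, Ifi30, Ctss, Cd40, Cd86, Pdcd1lg2, Icosl, Icam1 and Tnfsf9 fall outside this rule and were chosen after their values were seen. The same holds for the overlap partners and the non-member genes of the MHC interval. Adgre1 is listed in the table under an older symbol and was matched by identifier. Overlaps and 50-base words came from GENCODE M21. All 49 members were found there by identifier, and 32 of them had an exonic length equal to the deposited gene length. Promoters came from RefSeq (GRCm38.p6). Alternatives were other scalings and filters, DESeq2 1.42.0, limma-voom, the replicate block, an odd or even replicate term, a threshold of 0.01 and leaving out each library.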

Additional observations from a re-analysis of the deposited data

Results flagged for a closer look

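Among 46 groups of 4 libraries examined (the 22 tested members and the library total in each group), 3 held a library far from the other 3, about what chance gives at 1 in 20. Tapbpl was at 11.8 CPM in LLC-CM library 2, below the other LLC-CM libraries. Tapbp was at 53.0 CPM in NCM library 4, below the other NCM libraries. H2-Q1 was at 1.98 CPM in NCM library 3, above the other NCM libraries and within the LLC-CM range.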

How the results depend on the processing

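Of 372 pairs of a tested member and another setting, with the threshold of 0.01 left out, 368 kept the direction and the side of the threshold and none reversed. H2-DMb2 lost its call in 3, when a library was left out, and H2-DMa gained one in 1. At the threshold of 0.01 H2-DMb2 (edgeR adjusted p = 0.022) also lost its call. Over all 18 alternatives the classical class I and peptide loading genes kept 2 and 7 calls, and the class II count ran from 2 to 4. Leaving out a library kept 7 nonclassical calls and gave 4912 to 5501 genes called in all, against 5531. Without the low-count filter the nonclassical count was 11 in place of 7, because 4 more rows (H2-Q6, H2-Q7, H2-T24 and H2-M6-ps, the last lower in LLC-CM) were then tested and called, as was H2-Aa. The count over all genes was 3946 at its lowest, at an adjusted p of 0.01.

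The labels do not state that replicate numbers pair the samples, and no pairing was evident. Deviations of same-numbered libraries correlated between -0.107 and 0.303, and those of differently numbered libraries between -0.369 and 0.271. So few correlations cannot exclude a pairing. The replicate block moved no member across the threshold. With paired differences the ratios kept their values, -0.46 for H2-D1 to H2-K1, -0.83 for B2m to H2-K1, 1.79 for Psmb8 to Psmb5, 2.08 for Psmb9 to Psmb6 and 0.86 for Psmb10 to Psmb7, but 4 pairs cannot give a p below 0.125. Leaving out a library, the Tap1 to Tap2 difference ran from -0.34 to -0.23 and passed only without NCM library 3, and that of Psmb10 to Psmb7 ran from 0.73 to 1.02 and missed the threshold without any 1 NCM library (exact permutation test, p = 0.0571 each). Depth limits the 12 rows whose reads were too few to test. H2-M5 and Cd74 were not tested under the filter of 1 CPM.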
